A study of Mus musculus with 22 samples.

Results

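Transcripts of 9 cathepsins and of their secreted inhibitor cystatin C were examined in mouse renal capsule tissue and in macrophages of the capsule and the kidney. These 10 genes (Ctsa, Ctsb, Ctsc, Ctsd, Ctsh, Ctsk, Ctsl, Ctss, Ctsz and Cst3) were chosen by symbol, all were found among the 52636 genes counted, and all passed the filter on low counts in each of the 6 comparisons made. Bulk RNA sequencing gave 22 libraries in 6 groups. These were aged capsule tissue and young capsule tissue (3 libraries each), capsule macrophages and kidney macrophages (4 each, of unstated age), and aged and young libraries named RCAM (4 each). The labels list no treatment for any group and give no strain, sex or age beyond young and aged, and they do not say whether replicates came from separate animals. The p-values therefore reflect the spread between libraries, which may be technical.

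The series text describes capsules either analysed whole or sorted by flow cytometry for macrophages. The labels do not expand RCAM and list these libraries as whole tissue. Summed levels of 12 macrophage genes, in CPM (counts per 1000000 counts of the library), ranged 36874 to 41281 over the 8 RCAM libraries and 35254 to 39120 over the capsule macrophages, against 26642 to 29255 in kidney macrophages and 2063 to 10346 in capsule tissue. Summed levels of 8 adipocyte genes ranged 29.4 to 106 CPM over the RCAM libraries, and 16916 to 35777 CPM over the tissue. The RCAM libraries thus carried the macrophage genes at the level of the sorted capsule macrophages, whatever their label. Total counts per library, in units of 1000000, were 27.1 to 43.2 in aged and 20.6 to 22.2 in young capsule tissue, 39.3 to 53.4 in capsule and 31.9 to 49.9 in kidney macrophages, and 45.0 to 51.8 in aged and 49.9 to 54.4 in young RCAM libraries. Capsule tissue is a mixture, and there fewer cells of a type and less RNA per cell cannot be told apart.

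Cathepsins are proteases of the lysosome, the acidic compartment in which a macrophage breaks down what it has engulfed. Most are cysteine proteases, made as inactive precursors, carried to the lysosome by mannose 6-phosphate receptors and activated at low pH by the vacuolar proton pump. Ctsd is an aspartic protease and Ctsa a serine carboxypeptidase that also protects partner hydrolases. Cystatin C blocks cysteine cathepsins outside the cell, and its serum level is used in the clinic to judge kidney filtration. Genes of the lysosome, including several cathepsins, are known targets of TFEB and TFE3, which bind a palindromic element, and PU.1 is the lineage factor of macrophages that binds GAGGAAGT.

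Promoter windows of RefSeq (build GRCm38.p6, 250 bases before to 50 bases after the annotated start) were matched for 8 members, among which Ctsa has 2 windows. They are shown for the genes on which the results turn. Ctsd had the largest capsule excess among the macrophages besides Ctsk, and Ctsa shares its motif in its second window only. Ctss was the member that was lower in capsule macrophages, and Ctsk was the member called with age. Windows are chr7:142387778-142388077 (minus strand) for Ctsd, chr2:164833523-164833822 (plus strand, the second annotated start) for Ctsa, chr3:95526536-95526835 (plus strand) for Ctss and chr3:95498960-95499259 (plus strand) for Ctsk. Each is written 5′ to 3′ on the gene's strand. Capitals mark the E-box CACGTG in Ctsd and Ctsa, and the reverse complement of the PU.1 motif, ACTTCCTC, in Ctss. No capitals stand in Ctsk, where neither motif was found.
Ctsd: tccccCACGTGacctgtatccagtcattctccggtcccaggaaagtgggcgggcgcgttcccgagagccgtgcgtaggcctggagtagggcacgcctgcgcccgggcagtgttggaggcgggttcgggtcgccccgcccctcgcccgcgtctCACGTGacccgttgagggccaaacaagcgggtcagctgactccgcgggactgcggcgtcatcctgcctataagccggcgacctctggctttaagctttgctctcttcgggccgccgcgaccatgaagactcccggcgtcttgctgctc
Ctsa: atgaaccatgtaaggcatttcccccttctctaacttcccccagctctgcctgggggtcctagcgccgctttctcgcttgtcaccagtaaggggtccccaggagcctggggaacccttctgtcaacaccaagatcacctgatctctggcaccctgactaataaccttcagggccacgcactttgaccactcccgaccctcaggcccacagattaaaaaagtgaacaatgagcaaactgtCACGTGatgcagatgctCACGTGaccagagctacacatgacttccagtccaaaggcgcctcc
Ctss: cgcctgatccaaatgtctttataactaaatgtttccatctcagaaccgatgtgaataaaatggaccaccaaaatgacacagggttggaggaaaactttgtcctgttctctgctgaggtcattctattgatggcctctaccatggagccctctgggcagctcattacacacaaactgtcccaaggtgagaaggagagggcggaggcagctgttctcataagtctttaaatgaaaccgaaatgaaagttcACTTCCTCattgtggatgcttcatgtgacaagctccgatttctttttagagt
Ctsk: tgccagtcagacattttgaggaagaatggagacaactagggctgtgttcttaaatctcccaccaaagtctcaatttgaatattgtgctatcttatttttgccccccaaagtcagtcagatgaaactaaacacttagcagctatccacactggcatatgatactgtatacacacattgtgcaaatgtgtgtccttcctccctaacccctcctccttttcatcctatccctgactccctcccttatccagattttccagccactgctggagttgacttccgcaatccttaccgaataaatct

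The element TCACGTGA, which contains the E-box CACGTG, was found 99 bases before the start of Ctsd and, in the second Ctsa window, 13 bases before and 4 bases after the start. The first Ctsa window held none of the motifs searched. TCACGTGA was found in 0.97% of all 32851 windows, searched on both strands, and CACGTG in 7.15%. Counted per gene, these shares were 1.12% and 8.09% of 27025 genes with a window. Ctsd had a further E-box 245 bases before its start, and Ctsl had one 236 bases before its start, so 3 of the 8 members with a window held an E-box. GAGGAAGT was found on the opposite strand 2 bases before the start of Ctss and 151 bases before that of Ctsc, against 3.2% of all windows and 3.69% of genes. A further motif, TATAAA, was found in the member windows on the opposite strand of Ctss, 233 bases before the start, and in 13.62% of all windows. These matches describe letters in a window and say nothing of whether a factor was bound.

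The members took up 2.30 to 2.82% of all counts in aged RCAM libraries and 2.50 to 2.71% in young ones. The shares were 2.43 to 2.52% in capsule macrophages and 1.81 to 2.08% in kidney macrophages. They were 0.657 to 1.28% in aged and 0.584 to 0.634% in young capsule tissue. Per kilobase of the principal transcript, Ctsk had the lowest mean level of the 10 in each of the 6 groups, which also held with exon-union and with coding length. Cst3 had the highest mean in each group per kilobase of the principal transcript. With exon-union length Ctss led in kidney macrophages, and with coding length Ctsb led in the RCAM libraries and in aged capsule tissue, so the order of the top genes depends on the length used.

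The members differed in where they were high. Ctsk ranged 288-fold over the group means, with 95.4 ± 67.5 CPM in aged capsule tissue (SD, n = 3) and 0.331 ± 0.330 CPM in kidney macrophages (SD, n = 4), and was the only member with its 2 highest group means in tissue. Ctss ranged 25.1-fold and peaked in kidney macrophages at 4532 ± 377 CPM, with its lowest mean of 181 ± 79.4 CPM in young capsule tissue. Ctsd and Ctsl were lowest in kidney macrophages, at 87.4 ± 5.87 and 102 ± 14.9 CPM. The 7 members other than Ctsk, Ctsd and Ctsl had their lowest group mean in capsule tissue, and for 6 of these, all but Ctsb, the 4 macrophage and RCAM groups lay above both tissues. Ctsb had 3082 ± 224 CPM in kidney macrophages, below the 4658 ± 1550 CPM of aged tissue. Among neighbours in these orders, Cst3 ranges overlapped between capsule macrophages and kidney macrophages, between kidney macrophages and aged RCAM libraries, and between aged and young RCAM libraries. For Ctsh, ranges overlapped between every neighbouring pair of the 4 macrophage groups. For Ctsk, overlaps were seen between aged and young capsule tissue and between capsule macrophages and young RCAM libraries.

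**Figure D1:**
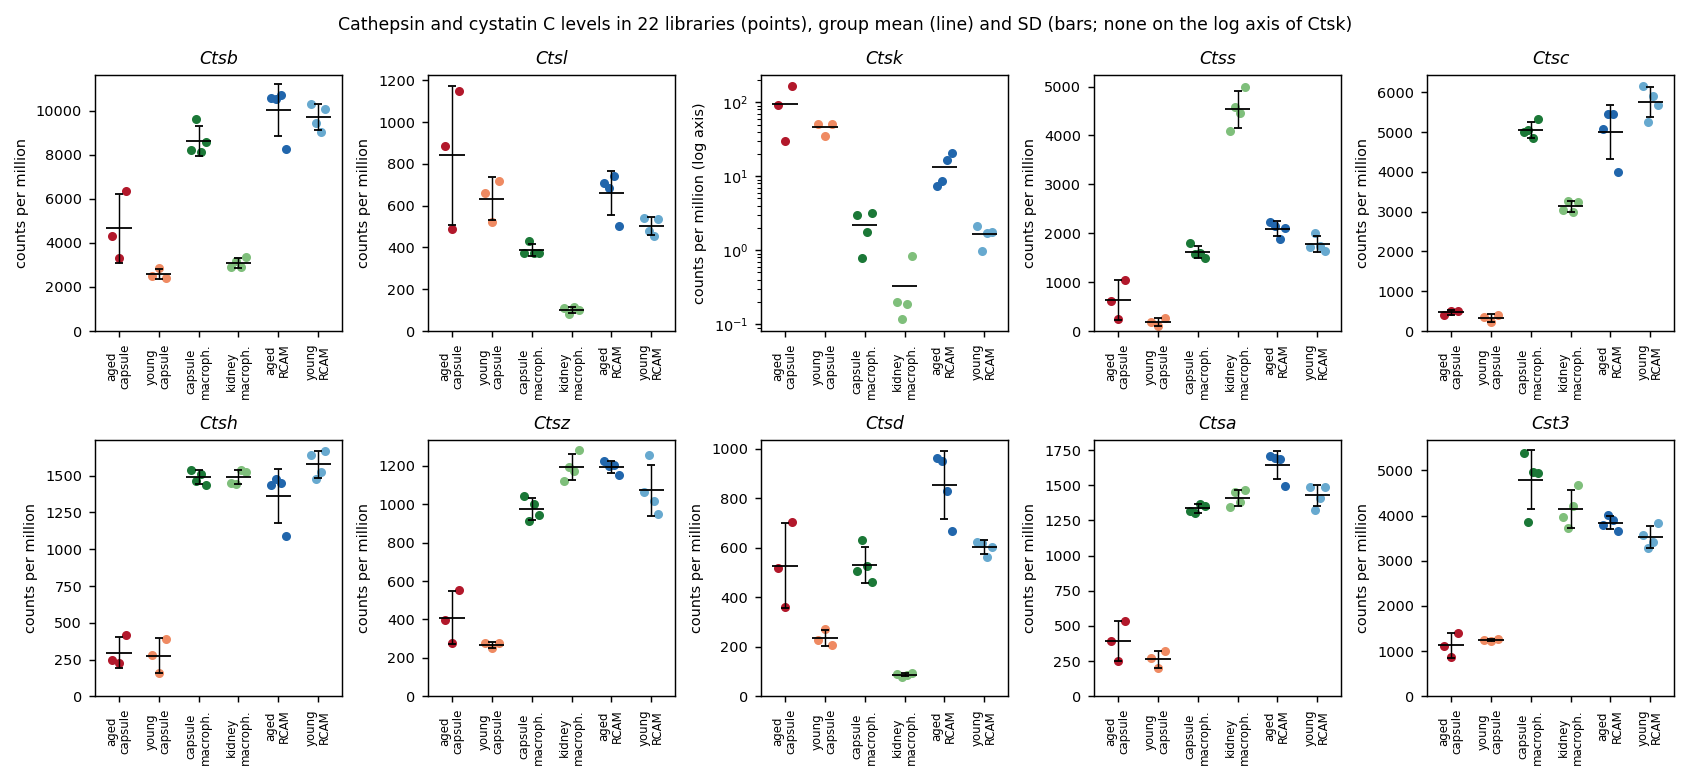
Levels of the 10 genes in every library, in CPM on linear axes and, for Ctsk, on a log axis, with points for libraries, lines for group means and bars for SD except on the log axis. Ctsk was highest in tissue, Ctss in kidney macrophages at 4085 to 5001 CPM, and Ctsd and Ctsl were lowest in kidney macrophages.

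The comparison of capsule with kidney macrophages asked how resident macrophages of the sheath differ from those of the organ. Of the 10 members, 7 were higher and 1 lower in capsule macrophages by edgeR's quasi-likelihood test at an adjusted p under 0.05 over 15701 genes, where 27.3% of all genes tested were called higher and 28.2% lower (55.4% in either direction). Members' log2 fold changes had a median of 0.66 and those of all genes tested -0.03. In the same comparison the 12 macrophage genes had a median of 0.70, with 10 higher and 1 lower. The 6 dendritic cell genes also had a median of 0.70, with 3 higher and 1 lower. Their summed levels overlapped, at 510 to 844 CPM in capsule and 540 to 707 CPM in kidney macrophages. Fold changes were computed after TMM scaling, while the CPM values printed are not scaled. Without scaling every fold change here is lower by about 0.21 on the log2 scale, 5 members are higher and 2 lower, and the share of higher among all calls is 35.1%, against 49.2% with TMM.

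Ctsd, the aspartic protease, differed most clearly. Its 4 capsule macrophage libraries had 507, 632, 524 and 463 CPM, and the kidney macrophage libraries 89.1, 79.3, 88.1 and 93.2 CPM. The groups lay far apart, with a log2 fold change of 2.81 ± 0.11 (SE), or 7.03-fold, and an adjusted p of 1.55e-08 in edgeR. Ctsa, the serine carboxypeptidase, was not called. It had 1301 to 1367 CPM in capsule and 1343 to 1465 CPM in kidney macrophages, with overlapping ranges, a log2 fold change of 0.13 ± 0.07 and an adjusted p of 0.129 in edgeR, and the sign turned to -0.08 without scaling.

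Among the cysteine cathepsins, Ctsb and Ctsl rose in capsule macrophages. Ctsb, an abundant protease that cuts both within chains and at their ends, had 8211, 9613, 8123 and 8574 CPM in capsule macrophages and 2908, 3162, 2896 and 3363 CPM in kidney macrophages (log2 fold change 1.69 ± 0.09, edgeR adjusted p = 1.83e-07). Ctsl, a strong endopeptidase, had 373, 433, 372 and 374 CPM in capsule macrophages and 111, 81.8, 115 and 101 CPM in kidney macrophages (2.14 ± 0.11, edgeR adjusted p = 9.58e-08). Neither gene's groups overlapped, as for 54.1% of all genes tested in this comparison, in either direction. Ctsc, the dipeptidyl peptidase that activates granule serine proteases, was 1.87-fold higher, with 4840 to 5325 CPM in capsule and 2997 to 3257 CPM in kidney macrophages (0.90 ± 0.07, edgeR adjusted p = 3.2e-06).

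Ctss went the other way. Ctss trims the invariant chain for MHC class II loading and stays active at neutral pH. Capsule macrophages had 1794, 1569, 1598 and 1498 CPM and kidney macrophages 4085, 4578, 4462 and 5001 CPM. The lowest kidney macrophage library was above the highest capsule macrophage library, and the log2 fold change was -1.28 ± 0.09 (edgeR adjusted p = 1.57e-06), so that the level was 2.43-fold lower in capsule macrophages.

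Changes in the remaining members were small or rested on few counts. Cst3 had 5397, 3870, 4967 and 4955 CPM in capsule macrophages and 3962, 3725, 4212 and 4688 CPM in kidney macrophages. These ranges overlapped. Its log2 fold change was 0.42 ± 0.11 with an edgeR adjusted p of 0.00958, and 0.21 with an adjusted p of 0.113 without scaling. Ctsh, an aminopeptidase, had 1439 to 1541 CPM in capsule and 1442 to 1538 CPM in kidney macrophages, and its called log2 fold change of 0.21 ± 0.06 (edgeR adjusted p = 0.0146) was 0 without scaling and was not called in a fit of all 22 libraries (adjusted p = 0.434). Ctsz, a carboxypeptidase, had 914 to 1042 CPM in capsule and 1120 to 1283 CPM in kidney macrophages. Those unscaled ranges did not overlap, as for 54.1% of all genes tested, but the fitted log2 fold change was -0.08 ± 0.08 with an edgeR adjusted p of 0.406, and -0.29 with an adjusted p of 0.0038 without scaling.

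Ctsk, the collagen-degrading protease best known from osteoclasts, was barely detected in these cells. It had 160, 32, 81 and 127 counts in the capsule macrophage libraries, or 2.996, 0.789, 1.74 and 3.23 CPM. The kidney macrophage libraries had 9, 5, 6 and 41 counts, or 0.197, 0.116, 0.188 and 0.822 CPM. The groups overlapped by 1 library in each, and the log2 fold change was 2.89 ± 0.69 (edgeR adjusted p = 0.00491), or 3.91 without kidney macrophage replicate 4. All 10 fibroblast genes of the marker list were higher in capsule macrophages, with a summed level of 643 to 936 CPM against 13.9 to 21.01 CPM in kidney macrophages and none of the 10 at 0 throughout either group. Per 1000 CPM of fibroblast genes, Ctsk was 4.33, 1.23, 1.99 and 3.45 CPM in capsule macrophages and 11.95, 5.52, 9.69 and 59.0 CPM in kidney macrophages. On this scale the order turned round, but the kidney quotients are imprecise. They divide 5 to 41 Ctsk counts per library by low fibroblast sums, and the value of 59.0 is that of replicate 4. Adipocyte, mast cell and erythroid lists were also higher in capsule macrophages in all 6, 6 and 4 genes tested, and the part of such transcripts in the member levels was not tested. The 9 proximal tubule genes summed to 19.2 to 169 CPM over capsule macrophage libraries, against 1941 to 3571 CPM over those of the kidney, and their part in the other levels was not tested either.

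**Figure D2:**
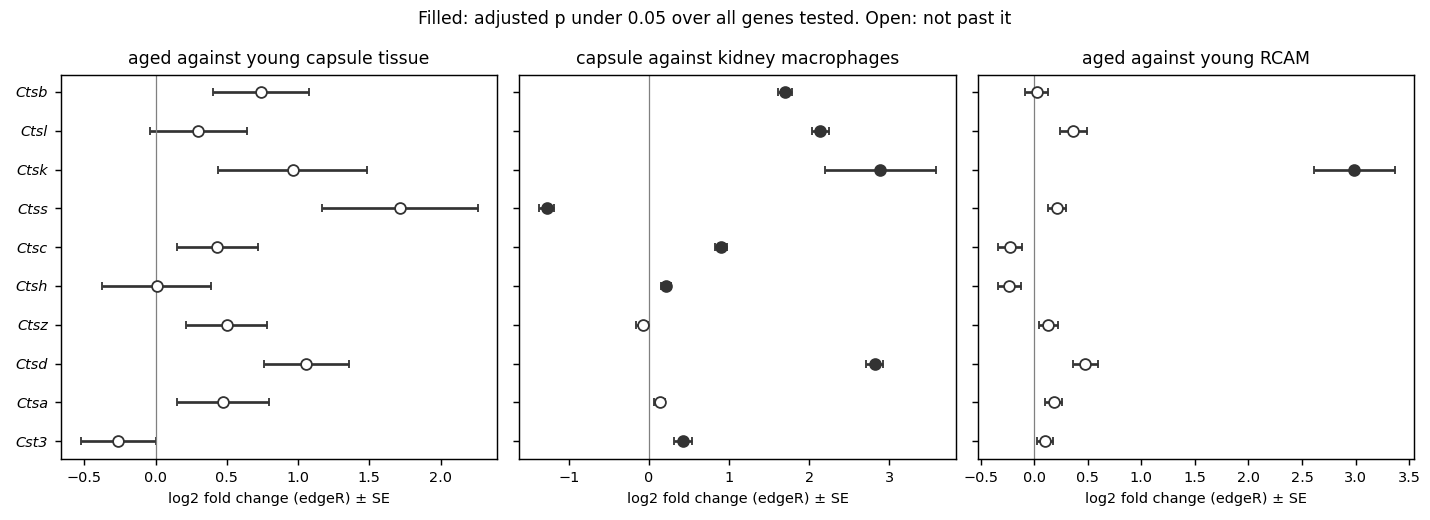
Fitted log2 fold changes of the 10 genes (points) with standard errors (bars) in 3 comparisons, with filled points where the edgeR adjusted p was under 0.05. Ctsb, Ctsl, Ctsk and Ctsd lay at 1.69 to 2.89 and Ctss at -1.28 between capsule and kidney macrophages, and Ctsk alone was called between aged and young RCAM libraries, at 2.99.

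The make-up of the cysteine cathepsins therefore differed between the 2 macrophage sources. Levels per kilobase of the principal transcript were summed over the 7 cysteine cathepsins and are given as a description, without a test. Ctss made up 19.5, 17.0, 18.1 and 16.6% of the sum in capsule macrophages and 46.1, 47.7, 47.8 and 48.9% in kidney macrophages. Ctsb made up 25.4 to 29.7% in capsule and 8.86 to 9.41% in kidney macrophages, and Ctsc 29.6 to 32.1% in capsule and 17.3 to 18.6% in kidney macrophages. At these lengths the sum itself was similar, at 6523 to 6825 CPM per kilobase in capsule and 6537 to 7556 CPM per kilobase in kidney macrophages, with overlapping ranges. With coding length the summed group means were higher in capsule macrophages, and with exon-union length in kidney macrophages. The size of the shares also depends on the length, though with each length Ctss took more in kidney and Ctsb more in capsule macrophages. By coding length, mean Ctsb was 8486 in capsule and 3031 CPM per kilobase in kidney macrophages, beside 1583 and 4443 for Ctss. The RCAM libraries had the capsule pattern, with Ctss at 17.97 to 24.0% in aged and 16.3 to 19.9% in young libraries and Ctsb at 27.0 to 29.4% in aged and 26.1 to 28.8% in young ones.

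Cst3 relative to this sum was 0.922, 0.659, 0.885 and 0.866 in capsule macrophages and 0.705, 0.611, 0.711 and 0.722 in kidney macrophages, overlapping through capsule replicate 2. In aged RCAM libraries the ratio was 0.567, 0.594, 0.590 and 0.659, and in young ones 0.536, 0.513, 0.545 and 0.605, again with overlap. In aged capsule tissue it was 0.603, 0.663 and 0.503, against 1.11, 1.26 and 1.02 in young capsule tissue. At these lengths the tissue values did not overlap, the aged ones overlapping the range of the RCAM libraries and the young ones above every other library. In the aged tissue the cysteine cathepsin sum was 2153, 1520 and 3256 CPM per kilobase, against 1309, 1141 and 1455 in the young tissue, while Cst3 had 1298, 1007 and 1636 CPM per kilobase in aged and 1455, 1438 and 1478 in young tissue. The weights of the ratio depend on the lengths used, and no p is given for it. With coding length the ratio of group means was higher in kidney macrophages than in young tissue or capsule macrophages, so the order of groups changed. Aged tissue stayed below young tissue with coding and with exon-union length.

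**Figure D3:**
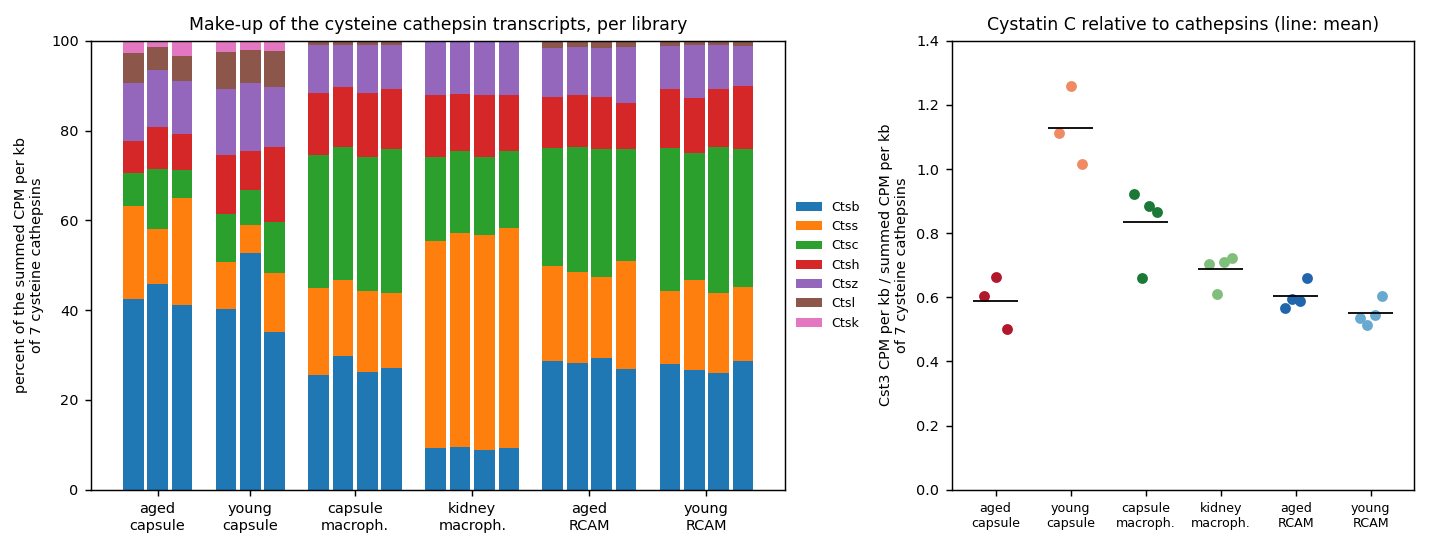
Left, percent of the summed level per kilobase of 7 cysteine cathepsins taken by each gene, 1 bar per library. Right, Cst3 level per kilobase over that sum, with points for libraries and lines for group means. Ctss filled 46.1 to 48.9% of the bars in kidney macrophages and 16.6 to 19.5% in capsule macrophages, and the ratio lay at 0.503 to 0.663 in aged and 1.02 to 1.26 in young capsule tissue.

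Other genes of the lysosome moved in both directions between the macrophage sources. Of 16 cathepsin inhibitors found, 5 were tested and 4 were higher in capsule macrophages, with a median log2 fold change of 2.77 over the 5. These were Serpinb1a (4.15 ± 0.15, edgeR adjusted p = 9.58e-09) and Serpinb6a (3.13 ± 0.11, 1.02e-08), both intracellular serpins, the cytosolic cystatin Cstb (1.34 ± 0.11, 4.08e-06) and the leukocyte cystatin Cst7 (2.77 ± 0.54, 0.00133). Of 41 tested lysosomal hydrolases and companion proteins, 26 were higher and 4 lower, with a median of 0.52 (21 higher and 8 lower without scaling). Examples were the sphingomyelinase Smpd1, at 114 ± 2.25 CPM in capsule and 39.6 ± 1.65 CPM in kidney macrophages (SD, n = 4 each), and Grn, whose product progranulin is needed for lysosome function, at 3725 ± 73.3 CPM in capsule and 943.7 ± 73.5 CPM in kidney macrophages.

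The proton pump and the sorting machinery split. Of 16 tested V-ATPase subunits and partners 7 were higher and 3 lower in capsule macrophages, and 6 and 6 without scaling, where the median turned from 0.19 to -0.02. Atp6v0a1 (1.34 ± 0.09, edgeR adjusted p = 5.73e-07) and Atp6v0d2 (1.69 ± 0.19, 3.21e-05) were among those that rose. Of 9 genes of mannose 6-phosphate sorting 3 were higher and 4 lower, among them Gnptab, the catalytic enzyme that starts the tag, at -1.56 ± 0.20 (7.99e-05), and the adaptor Gga1 at 0.73 ± 0.08 (3.44e-05). Of the 4 MiT transcription factors tested, Tfe3, Tfec and Mitf were higher (log2 fold changes 0.85, 1.45 and 0.46), while Tfeb had -0.004 ± 0.10 (edgeR adjusted p = 0.976), and 2 of the 4 were higher without scaling. Of 13 other cathepsins 4 were tested. Ctsf and Ctso were higher (0.94 and 0.49), Ctse, an aspartic protease, was lower (-0.74 ± 0.21, edgeR adjusted p = 0.0118), and Ctsw had -0.25 ± 0.50 (0.7). Among 8 tested genes of an osteoclast list 4 were higher and 1 lower. The gelatinase Mmp9 had 2179 ± 108 CPM in capsule and 5.43 ± 0.248 CPM in kidney macrophages.

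The second comparison asked what changed with age in the RCAM libraries. Ctsk was the 1 member of 10 that was called, among 4.8% of all 15182 genes tested (3.43% higher). Aged RCAM libraries had 7.48, 8.63, 16.5 and 20.7 CPM and young ones 2.11, 0.983, 1.70 and 1.77 CPM. Every aged library lay above every young one, by a log2 fold change of 2.99 ± 0.38, or 7.93-fold (edgeR adjusted p = 0.0027). Leaving out each library in turn gave 2.71 to 3.19 with the call kept in 8 of 8 fits, and leaving out aged replicates 3 and 4 together gave 2.27 (adjusted p = 0.0196).

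Fibroblast genes moved with Ctsk. The 10 fibroblast genes summed to 1339, 976, 2373 and 2745 CPM in aged RCAM libraries and 662, 563, 776 and 757 CPM in young ones, 6 of the 10 were called higher with a median log2 fold change of 1.62, and none was at 0 throughout a group. The 2 aged libraries with most Ctsk also had the largest fibroblast sums. Per 1000 CPM of fibroblast genes, Ctsk was 5.59, 8.85, 6.96 and 7.55 CPM in aged and 3.19, 1.75, 2.19 and 2.34 CPM in young RCAM libraries, again without overlap. In aged capsule tissue the same quotient was 7.37, 3.54 and 13.2, and in young capsule tissue 3.75, 4.14 and 4.50. The part of fibroblast transcripts in the Ctsk difference was not tested further. The macrophage gene sum was 37337 to 41281 CPM in aged and 36874 to 39539 CPM in young RCAM libraries. Other lists moved with age as well. The 8 lymphocyte genes summed to 24.5 to 33.0 CPM in aged and 12.2 to 18.7 CPM in young libraries, with 2 of 5 tested called higher, and Ms4a1 was at 0 in both ages. The 6 dendritic cell genes summed to 405 to 509 CPM in aged and 345 to 401 CPM in young libraries, with none called in edgeR, 3 at an unadjusted p under 0.05 and none at 0. The part of these lists in the member values was not tested.

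**Figure D4:**
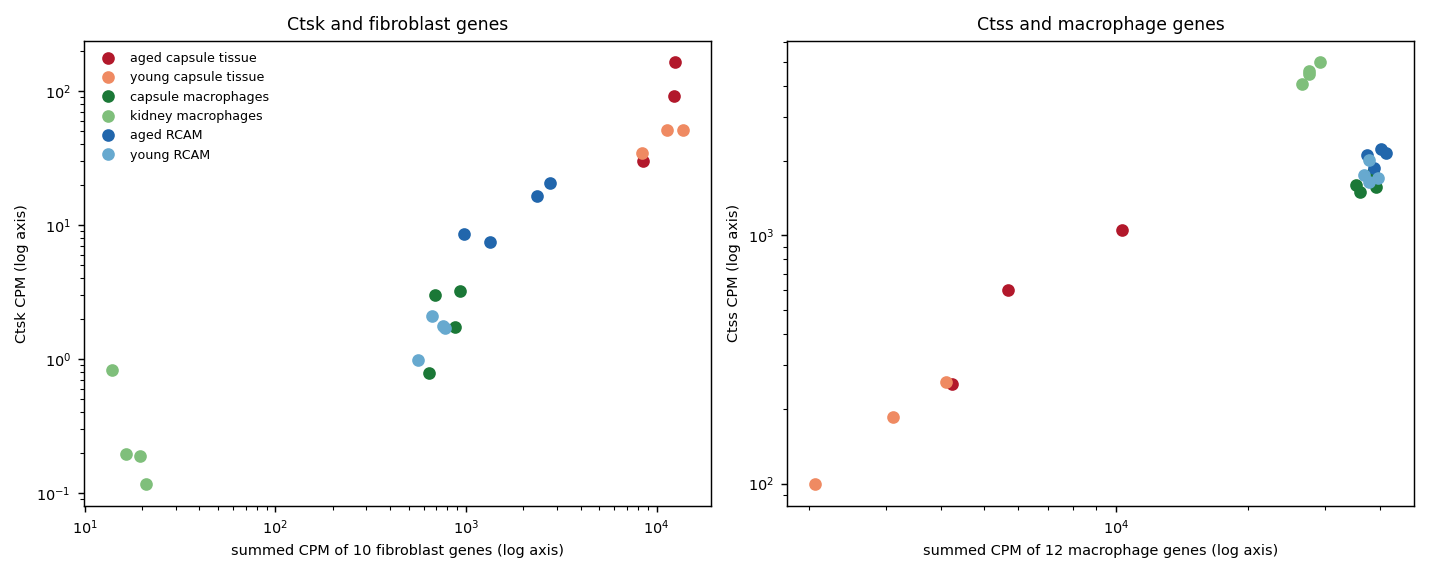
Left, Ctsk level against the summed level of 10 fibroblast genes, and right, Ctss level against the summed level of 12 macrophage genes, 1 point per library, in CPM on log axes. Aged RCAM libraries had 976 to 2745 CPM of fibroblast genes and 7.48 to 20.7 CPM of Ctsk, against 563 to 776 CPM and 0.983 to 2.11 CPM in young ones, and kidney macrophages had more Ctss than any other library.

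Ctsd was just outside the threshold. It had 963, 950, 830 and 666 CPM in aged and 624, 618, 561 and 604 CPM in young RCAM libraries. The groups did not overlap, as for Ctsa and Ctsk, all 3 higher in the aged libraries, beside 11.5% of all genes tested in either direction and 7.55% higher. The log2 fold change was 0.48 ± 0.12, with an edgeR adjusted p of 0.0505. It was called without aged replicate 4 (0.59, adjusted p = 0.01) and in 5 of 9 other settings. Ctsl had 710, 683, 740 and 504 CPM in aged and 541, 480, 455 and 534 CPM in young libraries, with overlap through aged replicate 4 (0.37 ± 0.13, edgeR adjusted p = 0.159; 0.48 and 0.0298 without that library). At an unadjusted p under 0.05, 5 members passed, namely Ctsk, Ctsd, Ctsl, Ctss and Ctsa, beside 17.4% of all genes tested. Ctss had 1873 to 2233 CPM in aged and 1639 to 2012 CPM in young libraries (0.21 ± 0.08, edgeR adjusted p = 0.223), and Ctsa 1495 to 1705 CPM in aged and 1327 to 1488 CPM in young libraries (0.18 ± 0.08, 0.272).

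The 5 remaining members gave small fitted values. Ctsb had 8272 to 10717 CPM in aged and 9010 to 10309 CPM in young libraries (0.02 ± 0.10, edgeR adjusted p = 0.953), and Cst3 had 3670 to 4011 CPM in aged and 3287 to 3844 CPM in young libraries (0.10 ± 0.08, 0.595). Ctsc and Ctsh had log2 fold changes of -0.23 ± 0.11 and -0.23 ± 0.11, and Ctsz had 0.13 ± 0.09, with edgeR adjusted p of 0.341, 0.311 and 0.528. Their ranges overlapped between the ages.

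Of 41 lysosomal hydrolases and companions tested in the RCAM libraries 3 were higher with age and none lower at the adjusted threshold, with 11 passing an unadjusted p under 0.05. They were Cd63, a membrane protein of late endosomes, at 248 ± 20.9 CPM in aged and 128 ± 11.03 CPM in young libraries (SD, n = 4 each), the galactosidase Gla (0.42 ± 0.09, edgeR adjusted p = 0.0266) and the fucosidase Fuca1 (0.23 ± 0.06, 0.05, just inside the threshold). The 2 sorting receptors Igf2r (1.51 ± 0.24, edgeR adjusted p = 0.00796) and Sort1 (0.84 ± 0.11, 0.00333) rose among 9 sorting genes. Igf2r, the large mannose 6-phosphate receptor, had 27.0 ± 7.14 CPM in aged and 9.26 ± 2.68 CPM in young RCAM libraries, and 120 ± 25.0 CPM in aged and 107 ± 18.4 CPM in young capsule tissue. Of 16 V-ATPase genes Atp6v0d2 rose (1.30 ± 0.13, edgeR adjusted p = 0.00109), and of 5 tested inhibitors Serpinb1a fell (-0.52 ± 0.10, 0.0161). None of the 4 MiT factors, 4 other cathepsins or 8 osteoclast genes was called in edgeR, with 0, 1 and 2 at an unadjusted p under 0.05.

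In capsule tissue the same question gave values that varied more between libraries. None of the 10 members was called between aged and young tissue in edgeR, among 0.239% of all 16350 genes tested, with 2 at an unadjusted p under 0.05, a share near the 22.5% of all genes. DESeq2 called 2, Ctsd and Ctss, and 11.5% of all genes. The median of the members' log2 fold changes was 0.49, against 0.04 for all genes tested. Ctss had 605, 252 and 1049 CPM in aged and 186, 99.1 and 258 CPM in young tissue, overlapping through aged replicate 2 (1.72 ± 0.54, edgeR adjusted p = 0.127; 1.58 and 0.00449 with the replicate number as a block, which raised the calls over all genes to 2196, against 39 without it). Ctsd had 519, 362 and 703 CPM in aged and 226, 270 and 207 CPM in young tissue (1.06 ± 0.30, edgeR adjusted p = 0.109). Without aged replicate 3 the log2 fold changes were 1.07 for Ctss and 0.75 for Ctsd, and without aged replicate 2 they were 2.10 and 1.27.

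Ctsd, Ctsb and Ctsz did not overlap between the ages of tissue, being higher in the aged, beside 28.6% of all genes tested in either direction and 19.1% higher. Ctsb had 4329, 3299 and 6346 CPM in aged and 2493, 2846 and 2423 CPM in young tissue (0.74 ± 0.34, edgeR adjusted p = 0.239), and Ctsz had 396, 280 and 554 CPM in aged and 278, 251 and 279 CPM in young tissue (0.50 ± 0.28, 0.337). Aged replicate 3 was highest in every member but Ctsc by a clear margin, and in Ctsc by 514.6 against 510.8 CPM. Ctsk had 91.2, 30.1 and 165 CPM in aged and 51.5, 34.6 and 51.1 CPM in young tissue (0.96 ± 0.52, edgeR adjusted p = 0.317), and 0.23 without aged replicate 3. Cst3 was the member with a negative value, at 1116, 866 and 1407 CPM in aged and 1251, 1236 and 1271 CPM in young tissue (-0.26 ± 0.27, edgeR adjusted p = 0.606). Ctsa, Ctsc, Ctsh and Ctsl had log2 fold changes of 0.47, 0.43, 0.01 and 0.30, none called, with overlapping ranges. Between same-numbered libraries, the aged one was higher in 3 of 3 pairs for Ctsa, Ctsb, Ctsc, Ctsd, Ctss and Ctsz, in 2 for Ctsh, Ctsk and Ctsl and in 1 for Cst3, where 35.6% of all genes tested were higher in 3 of 3. With the block, Ctsa and Ctsc had adjusted p of 0.16 and 0.238 in edgeR.

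The make-up of the tissue moved beside these values. The 12 macrophage genes summed to 5669, 4232 and 10346 CPM in aged and 3113, 2063 and 4095 CPM in young tissue, with 7 of the 12 at an unadjusted p under 0.05, none called in edgeR and none at 0. Per 1000 CPM of macrophage genes, Ctss was 107, 59.6 and 101 CPM in aged and 59.8, 48.1 and 62.9 CPM in young tissue, with overlap, and 153 to 171 CPM in kidney macrophages. For Ctsb the quotient was 764, 780 and 613 in aged and 801, 1380 and 592 in young tissue, with overlap, and Ctsc, Ctsd and Ctsz also overlapped. Cst3, Ctsa, Ctsh and Ctsl had lower quotients in every aged than in every young tissue library. For Cst3 they were 197, 205 and 136 in aged and 402, 599 and 310 in young tissue. For Ctsl they were 156, 115 and 111 in aged and 212, 252 and 176 in young tissue. The macrophage sum was itself higher in every aged than in every young tissue library. A gene of unchanged level would thus have a lower quotient in aged tissue. The share of all genes lower in this way was not computed, so these quotients are not read as a trait of the members. Proximal tubule genes summed to 1413 to 6752 CPM in aged and 6889 to 27218 CPM in young tissue, and 7 adrenal cortex genes to 6505 CPM in aged replicate 2, against 11.5 to 197 CPM in young tissue and 15.1 to 24.2 CPM in the other aged libraries. All 8 lymphocyte genes passed an unadjusted p under 0.05 with a median log2 fold change of 1.70, and 1 of them was called. The part of each in the member values was not tested.

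The difference between the 2 age effects was tested directly in 1 fit of the 4 groups. None of the members was called in edgeR, among 5.05% of all 18856 genes tested, with 4 at an unadjusted p under 0.05, beside 22.4% of all genes, and 2 called by DESeq2, beside 13.4%. Ctsk had the largest positive difference, the RCAM age effect exceeding that of tissue by 2.07 ± 0.69 on the log2 scale (edgeR adjusted p = 0.0921; 2.24 and 0.043 with the block; 2.80 and 0.0223 without aged tissue replicate 3). Ctss had the largest negative one, at -1.47 ± 0.53 (edgeR adjusted p = 0.117; -1.85 and 0.0311 without aged tissue replicate 2, and -0.83 without replicate 3). Cst3 had 0.40 ± 0.22 (0.315; 0.63 and 0.0282 without aged tissue replicate 3).

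RCAM libraries and capsule tissue of the same age were compared last, and these comparisons use the same libraries as the age comparisons. In young samples 9 members were called, among 75.9% of all 17491 genes tested (35.2% higher and 40.6% lower), and in aged samples 9, among 70.7% of 17595 (32.2% higher and 38.5% lower). In both, 8 were higher and Ctsk was lower in the RCAM libraries, while Ctsl was not called. The largest excess was that of Ctsc, at 5254 to 6148 CPM in young RCAM libraries and 219 to 416 CPM in young tissue (4.39 ± 0.27, edgeR adjusted p = 3.07e-06), and at 4006 to 5459 CPM in aged RCAM libraries and 403 to 515 CPM in aged tissue (3.71 ± 0.21, 2.65e-06). Of the 8 that were higher, Ctsd had the smallest excess at both ages, at 3.08-fold in young and 2.02-fold in aged samples, and Cst3 had 3.38-fold and 4.25-fold. Ctsk was 23.1-fold lower in young RCAM libraries than in young tissue (-4.53 ± 0.29, edgeR adjusted p = 3.45e-06) and 5.72-fold lower in aged ones (-2.52 ± 0.55, 0.00339; -1.83 without aged tissue replicate 3).

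Ctsl was the member called at neither age between RCAM libraries and tissue. It had 541, 480, 455 and 534 CPM in young RCAM libraries and 659, 520 and 720 CPM in young tissue (-0.07 ± 0.15, edgeR adjusted p = 0.696), and 504 to 740 CPM in aged RCAM libraries and 487 to 1148 CPM in aged tissue (-0.02 ± 0.27, 0.941).

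A difference in how libraries were made or counted also separates tissue from sorted cells. The labels describe a stranded kit for 100 ng of RNA and another kit for 2 ng, without saying which sample had which. Among 268 genes with at least 5 CPM in all 6 tissue libraries that lie wholly within a gene on the opposite strand, 228 had a count of 0 in all 16 other libraries (85.07%), against 2 of 5897 genes with no opposite-strand neighbour and 2 of 4241 genes (0.05%) that share part of their span with one. This technical difference and the cell source cannot be told apart in RCAM against tissue comparisons. Of the members, 49.7% of the principal transcript of Ctsa (with Neurl2 and Pltp), 32% of Ctsl (with an antisense gene), 16.3% of Ctsb (with Fdft1), 5.9% of Ctsc (with a lincRNA) and 0.7% of Ctsz (with Nelfcd) lies in an opposite-strand gene. These 5 belong to the partly shared class, and whether their values across tissue and sorted libraries are affected was not tested. For Ctsd, 70.4% lies within a predicted gene on the same strand. Cst3, Ctsk, Ctsh and Ctss share no transcript base with another gene. By GENCODE M21 coordinates of GRCm38, Ctsk and Ctss lie close together on chromosome 3, at 95499256-95509362 and 95526786-95556403, both on the plus strand.

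The genes whose pattern over the 22 libraries was most like that of 3 members were found by the root mean square difference of centred log2 CPM. For Ctsk these were Aebp1 (0.71), Plpp3 (0.80) and Efemp1 (0.83), where the median over 8780 genes was 2.92. For Ctss they were Pkib (0.24), Lair1 (0.28) and Fyb (0.28), with a median of 1.503 over 8779, and for Cst3 Jpt1 (0.16), Dazap2 (0.18) and Nudt16 (0.18), with a median of 0.91. The 22 libraries share groups, kits and cell make-up, so these likenesses describe the group pattern.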

How the data were processed

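RNA was sequenced in bulk from 22 libraries, in single-end reads of 50 bp, per the labels' protocols. The values used are raw counts per gene as deposited by the authors. GRCm38 is named per the submitters' processing notes, and the aligner, counter and strand setting were not given in the sources used here. RPKM values deposited by the authors beside the counts were not used. Totals were 20.6 to 54.4, in units of 1000000 counts, and counts as low as 5 for Ctsk limit its precision.

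Gene identifiers were mapped with GENCODE M21. CPM is the count per 1000000 of the library total over all genes, computed with Python 3.11.15 and pandas 2.3.3. Tests were 2-sided quasi-likelihood F tests of edgeR 4.0.16 in R 4.3.3, with TMM factors and filterByExpr at its defaults, on the groups compared. Benjamini-Hochberg adjustment ran over every gene tested, and calls had an adjusted p under 0.05. Alternatives used DESeq2 1.42.0, limma 3.58.1, other scalings, no filter, a replicate block, all 22 libraries in 1 fit and each library left out. The steps were tested on simulated data.

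The members and lists were chosen with earlier results of these data known. Named genes were all 10 members, up to 4 genes of smallest p per list, the 3 genes most like Ctsk, Ctss and Cst3, and 6 markers, of which only sums of their lists are printed. Titles number the replicates. In capsule tissue the deviations of same-numbered aged and young libraries correlated at 0.196, 0.539 and 0.497, which meets the criterion for pairing there (over 0.1 in every pair), from the data and not the labels. The tissue results given are nevertheless from the fit without the block, as designed, with the blocked value beside those it changed. Elsewhere same-numbered libraries gave -0.245 to 0.099. All replicate pairs differed by more than sampling noise.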

Additional observations from a re-analysis of the deposited data

Results flagged for a closer look

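In 40 groups of 4 libraries, a library stood apart in 5 by its gap to the nearest other library relative to the whole range (Dixon's criterion), and chance alone marks about 1 in 20. Aged RCAM replicate 4 was low in 3 genes, with 1495 CPM of Ctsa (the others 1684 to 1705), 8272 CPM of Ctsb (10539 to 10717) and 1088 CPM of Ctsh (1436 to 1480). The same library had the highest fibroblast sum of its group, 2745 CPM. Kidney macrophage replicate 4 was high in Ctsk, at 0.8222 CPM, or 41 counts, against 0.116 to 0.197 CPM in the others. Capsule macrophage replicate 2 was high in Ctsl, at 432.9 CPM against 371.8 to 373.8 CPM, and it also had the lowest Cst3 of its group, 3870 CPM. The causes were not tested.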

How the results depend on the processing

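Of 1010 member fold changes computed under alternatives, 950 kept their direction and their side of the threshold, 30 passed it anew, 2 lost it and 28 changed sign. The 2 lost were Ctsh between capsule and kidney macrophages in a fit of all 22 libraries (0.204) and Cst3 there without scaling (0.21). Unscaled totals and leaving out aged RCAM replicates 3 and 4 together were chosen after seeing the data.

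Sign changes occurred in Ctsa, Ctsb, Ctsh, Ctsl and Ctsz, none of them called in the comparison concerned except Ctsh between macrophages. For Ctsh between aged and young tissue they were -0.007 with DESeq2's size factors and with DESeq2, -0.016 without filter, -0.366 without aged replicate 3, -0.023 and -0.295 without young replicates 1 and 2, and -0.109 without both replicates numbered 2. Leaving out single libraries gave Ctsh up to 0.375. Ctsl there was -0.047 without aged replicate 3 and up to 0.573. Between capsule and kidney macrophages, Ctsa was -0.079 and Ctsh 0.000 without scaling. Ctsb with age in RCAM libraries was -0.010, -0.015 and -0.028 without aged replicates 2 and 3 and young replicate 3, and up to 0.109. Ctsl between young RCAM libraries and tissue was 0.040 in a fit of all 22 libraries, and 0.038 and 0.049 without RCAM or tissue replicate 3, and down to -0.184. Between aged RCAM libraries and tissue it was 0.040 with limma-voom, 0.170 with the replicate block, 0.091 without RCAM replicate 4 and 0.292 without tissue replicate 3, and down to -0.284. For the difference of age effects, Ctsl was -0.071 with all 22 libraries, -0.148 without both tissue replicates 2, -0.017 unscaled, -0.167 without aged tissue replicate 2 and 0.000 without young tissue replicate 3, and up to 0.452. Without aged tissue replicate 3, Ctsa was 0.088, Ctsh 0.168 and Ctsz 0.002, and their lowest values were -0.486, -0.55 and -0.537.

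Counts of calls moved most in capsule tissue. There DESeq2 called 2 members and 1876 genes, the replicate block 1 and 2196, all 22 libraries in 1 fit 6 and 3097, and leaving out both replicates numbered 2 called 1 and 487. No filter called 1095 genes and limma-voom 25. Leaving out single libraries called 0 members and 0 to 387 genes. With age in RCAM libraries 2 members were called with DESeq2's size factors, without filter, without scaling, without aged replicates 3 and 4, and by DESeq2. DESeq2 called 1441 genes, the replicate block 336, and the fit without aged replicates 3 and 4 called 223. Single libraries left out gave 1 to 3 members and 451 to 629 genes. For the difference of age effects DESeq2 called 2 members and 2324 genes, the replicate block 1 member, all 22 libraries 3 and 2204 genes, and the fit without both tissue replicates 2 called 3 members. Single libraries left out gave 0 to 2 members and 282 to 1594 genes. In these comparisons the causes were not tested. Where no count over all genes stands beside a member count, that member count describes the setting and is not read as a result about the members. The block changed no other member count, and in macrophages and RCAM libraries the samples share only a number. Leaving out 1 library of capsule or kidney macrophages kept 8 member calls, and of RCAM libraries against tissue 9. Without both tissue libraries numbered 2, RCAM against tissue is the fit that leaves out 1 tissue library, so it was not repeated.

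Scaling moved the median of all genes by over 0.1 where totals were left unscaled (0.118 in aged against young tissue, -0.211 in capsule against kidney macrophages, -0.261 and -0.325 in young and aged RCAM libraries against tissue, -0.131 in the difference of age effects) and, with DESeq2's size factors, in young RCAM libraries against tissue (-0.11). DESeq2 itself gave -0.111 there. The fit of all 22 libraries moved it by 0.152 in aged against young tissue and by -0.19 in the difference of age effects. Leaving out young tissue replicate 2 or both tissue replicates 2 moved that difference by -0.13 and -0.109. No filter moved aged RCAM libraries against tissue by -0.139. The share of higher among calls in aged RCAM libraries against tissue was 35.4% unscaled and 45.6% with TMM, and in the difference of age effects 45.0% and 61.9%. Depth limits Ctsk in kidney macrophages, with 5 to 41 counts.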
